A study of Mus musculus with 6 samples.

Results

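The cytosolic ribosomal protein genes encode the proteins of the large and small subunits of the ribosome, and 84 of the 21720 genes in the deposited table were such genes by their symbols. They were taken as every symbol that starts with Rpl or Rps followed by a number, with a short suffix for a paralog, together with Rplp0, Rplp1, Rplp2 and Rpsa. Kinases of the S6 kinase family and genes of the mitochondrial ribosome have other symbols and were not members. 49 members belonged to the large subunit, 32 to the small subunit and 3 to the stalk, and 83 passed the filter on low counts, as did 14963 genes in all. The remaining member, Rpl10l, had 0 counts in all 6 libraries.

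RNA-seq was made from subcutaneous tumours of H22, a mouse hepatocellular carcinoma line, grown in wild-type female BALB/c mice that were 6 to 8 weeks old. The control group received 0.5% carboxymethyl cellulose sodium and the luteolin group received luteolin, a plant flavone, at 200 mg/kg. Both were given in 0.2 ml once daily for 21 days, from a tumour volume of about 50 mm3. Each group had 3 libraries with 61081637 to 80442954 estimated counts, and the question was how gene expression of the tumours differed after luteolin. The sources used here do not say whether each library was a separate mouse, so p-values measure only the spread between these samples, which may be technical.

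A ribosome holds 1 copy of nearly every ribosomal protein, and cells keep the mRNAs of these proteins among the most abundant they have. The mRNAs start with a run of pyrimidines, the 5′ terminal oligopyrimidine tract, through which mTORC1 and the binding protein Larp1 control their translation. Loss of balance between ribosomal proteins and ribosomal RNA leaves free Rpl5 and Rpl11, which bind Mdm2 and stabilise p53. Several members have a paralog that is expressed in few tissues and can take the place of its partner in the ribosome.

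The pair of coding sequences below carried the largest difference between the groups and the largest spread within them. Rpl39 (chrX:37082520-37085402, minus strand) and Rpl39l (chr16:10170226-10174911, plus strand) encode small proteins at the exit tunnel of the large subunit, and each has 153 coding bases in GENCODE M21 on GRCm38. Capitals mark the 23 bases at which the coding sequences differ, an identity of 85.0%.
Rpl39: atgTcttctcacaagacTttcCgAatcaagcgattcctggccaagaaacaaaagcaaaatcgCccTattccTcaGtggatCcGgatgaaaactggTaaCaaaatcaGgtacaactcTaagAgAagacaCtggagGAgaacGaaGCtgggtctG
Rpl39l: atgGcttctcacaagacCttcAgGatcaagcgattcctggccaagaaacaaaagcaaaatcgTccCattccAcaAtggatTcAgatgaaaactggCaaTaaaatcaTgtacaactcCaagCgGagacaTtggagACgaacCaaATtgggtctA

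The starts of 4 members show 3 with a pyrimidine run and 1 without it. They were taken from RefSeq on GRCm38.p6 as the 30 bases before and the 15 bases after 1 annotated start of each gene. Capitals mark a run of 6 or more C or T within 10 bases of the start, on the strand of the gene. Rps6 lies at chr4:86857353-86857397 on the minus strand and Rplp2 at chr7:141447621-141447665 on the plus strand. Rpl15 lies at chr14:18270972-18271016 and Rpl41 at chr10:128549154-128549198, both on the minus strand. Rpl41 had no such run at this annotated start, which does not show that its mRNA lacks the tract.
Rps6: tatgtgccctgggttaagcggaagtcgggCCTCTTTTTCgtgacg
Rplp2: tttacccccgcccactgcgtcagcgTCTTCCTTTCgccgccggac
Rpl15: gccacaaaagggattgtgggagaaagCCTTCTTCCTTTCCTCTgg
Rpl41: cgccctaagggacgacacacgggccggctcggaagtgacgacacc

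Promoter sequence was matched by symbol for 64 of the 84 members. The run was present in 38 of these 64 (59.4%) and in 32.7% of 27025 genes. The motif CGGAAG, read on both strands (CTTCCG) over 300 bases around the start, was present in 43 of the 64 (67.2%) and in 18.8% of all genes. A CTTCCG match can overlap a pyrimidine run, and either match is a description of the sequence only.

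The members as a family took similar shares of the RNA in both groups. Of the library total, their summed counts made up 5.74%, 6.29% and 4.24% in the control libraries (in the order of their replicate numbers, as for all values of single libraries) and 5.62%, 6.41% and 5.56% in the luteolin libraries. Control replicate 3 was lowest, luteolin replicate 2 was highest, and the groups overlapped. The means were 5.42% ± 1.06 (SD, n = 3) and 5.86% ± 0.474, a difference of 0.441 percentage points that became -0.15 points without control replicate 3. In a bulk tumour, fewer cells of a type with many ribosomes and less of these mRNAs per cell cannot be told apart. The ratio of large subunit counts, with the stalk genes included, to small subunit counts was 1.41, 1.32 and 1.37 in control. It was 1.29, 1.32 and 1.29 in luteolin, so that these groups overlapped only in the second library of each.

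No member was called between luteolin and control. With edgeR's quasi-likelihood fit and Benjamini-Hochberg adjusted p-values over all 14963 genes, 0 of 83 members were higher and 0 were lower at an adjusted p under 0.05, where 1.34% and 0.187% of all genes were. At an unadjusted p under 0.05, 3 members were higher (Rpl10a, Rpl29 and Rpl39l) and 1 was lower (Rpl4), against 14% and 6.44% of all genes. DESeq2 called 1 member, Rpl39l, against 12.2% of all genes. The limma voom fit with sample quality weights called 5 of 83, with Rpl10a, Rpl29 and Rpl39l higher and Rpl3 and Rpl4 lower, against 21.4% of all genes. By the threshold of the study, an unadjusted p under 0.05 with a log2 fold change beyond 1, 1 member was higher (Rpl39l, against 11.3% of all genes) and 0 were lower (1.52%). Every luteolin library lay above every control library for 4 members (Rpl10a, Rpl29, Rpl39l and Rps19, against 15.9% of all genes) and below for 2 (Rpl3 and Rpl4, against 12.8%). Rpl10a and Rpl29 are named here because these counts single them out, after their values were seen. Rpl39l passed the filter on low counts only through the luteolin libraries, so its entries in these counts are no independent support.

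The fitted fold changes of the members were small and close to each other, as the plot of fold changes by gene shows. The median log2 fold change, luteolin over control, was 0.13 over the members and -0.01 over all genes tested. The middle 50% of members lay between 0.04 and 0.25, against -0.27 to 0.49 for all genes, and 78 of 83 members were within 0.5 of 0, against 63.7% of all genes. The median standard error was 0.213 for members and 0.295 for all genes. Of the members, 65 were above 0 and 18 below, where 49.3% of all genes were above 0. This split depended on the libraries and the tool: it was 38 above and 45 below without control replicate 3, where the median was -0.03, 49 above and 34 below without luteolin replicate 2, and 27 and 56 by limma voom (median -0.09). It was 74 and 9 with upper-quartile normalization and 18 and 65 with offsets for GC content and length, which moved the median of all genes to -0.24, with the members' median of -0.16 then 0.08 above it. Counted against the median of all genes in the same fit, 67 members were above it in the reported fit, 66 with upper-quartile normalization, 59 with the offsets, 52 without luteolin replicate 2, 31 by limma voom and 30 without control replicate 3.

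**Figure D1:**
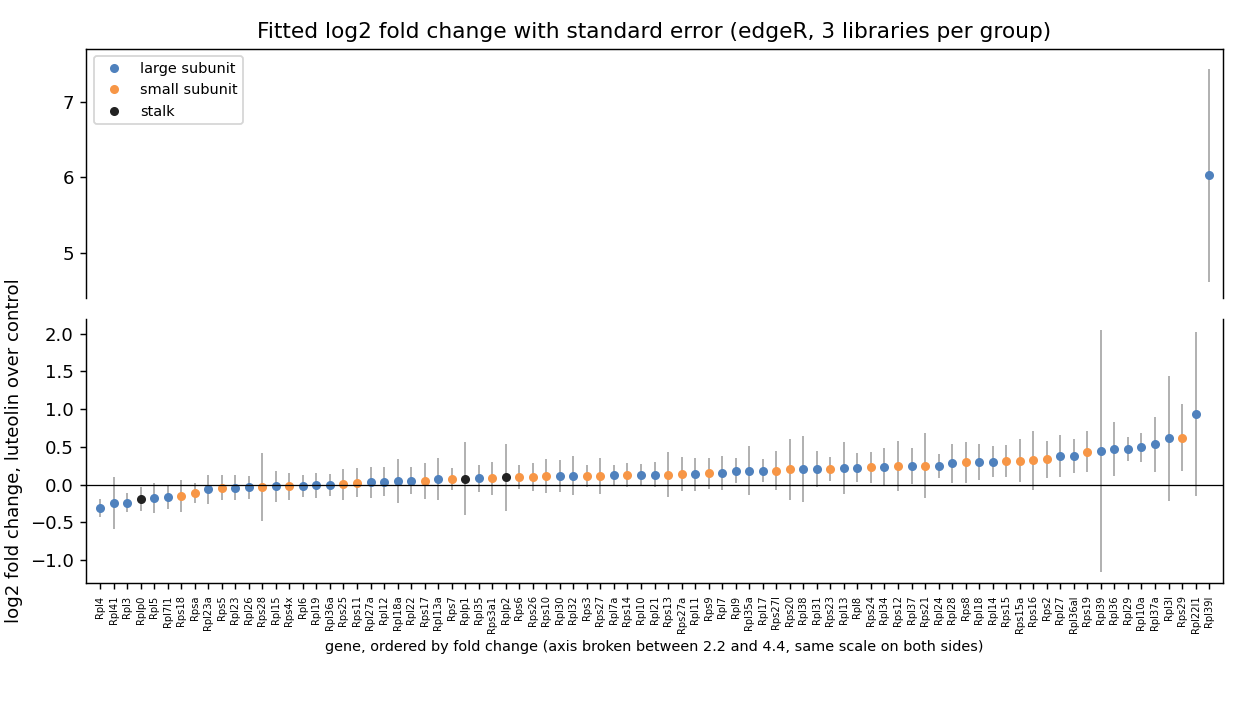
Fitted log2 fold change (y axis, luteolin over control, edgeR, 3 libraries per group) of the 83 tested ribosomal protein genes in order of size (x axis), with bars for the standard error, and with the y axis broken between 2.2 and 4.4. 78 genes lie within 0.5 of 0, Rpl39l stands apart at 6.03, and the widest bar belongs to Rpl39.

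The median log2 fold change was 0.14 for the large subunit, with 36 of 48 tested genes above 0, and 0.13 for the small subunit, with 27 of 32 above 0. It was 0.08 for the stalk, with 2 of 3 above 0.

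Most of the spread of the family lay between single libraries and not between the groups. Levels are given as TMM-normalised counts per 1000000 (CPM), and a deviation is the log2 CPM of a gene in a library minus its mean over the 6 libraries. The members' median deviation was 0.05, 0.20 and -0.42 in the control libraries and 0.01, 0.20 and -0.02 in the luteolin libraries. Control replicate 3 held the lowest CPM, ties included, of 70 of the 83 tested members, control replicate 1 of 10 and luteolin replicate 2 of 4. The highest CPM fell in luteolin replicate 2 for 43 members and in control replicate 2 for 33. The median SD of log2 CPM within groups was 0.294 over members and 0.366 over all genes tested.

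**Figure D2:**
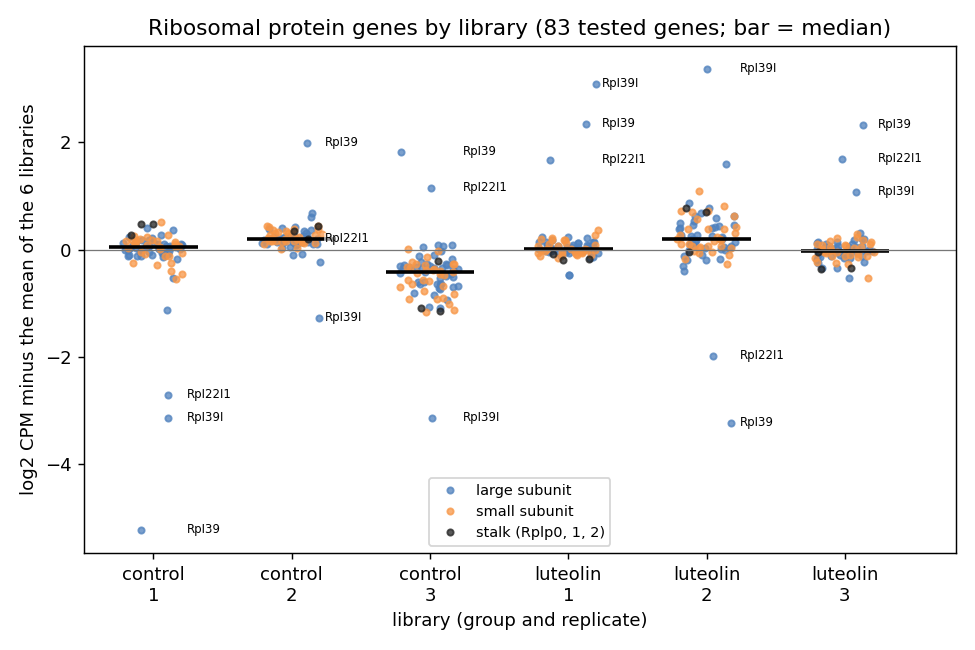
Deviation of each of the 83 tested members (points, y axis in log2 CPM minus the mean of the 6 libraries) by library (x axis), coloured by subunit, with a bar at the median. Control replicate 3 lies lowest at -0.42, and Rpl39, Rpl22l1 and Rpl39l stand far from the other genes in several libraries.

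The low levels in control replicate 3 were steeper for short coding sequences. In the 27 shortest members, of 75 to 390 coding bases, the median deviation was -0.64 in control replicate 3 and 0.40 in luteolin replicate 2. In the 27 longest, of 582 to 1257 bases, it was -0.27 and 0.10. Over the 83 members, Spearman's correlation between deviation and coding length was 0.55 in control replicate 3, -0.33 in luteolin replicate 2, -0.31 in control replicate 2, -0.22 in luteolin replicate 1, 0.12 in luteolin replicate 3 and -0.04 in control replicate 1. Over the 6695 tested coding genes no longer than the longest member, this correlation was 0.11 in control replicate 3 and -0.06 in luteolin replicate 2. The median log2 fold change was 0.20 in the shortest members and 0.08 in the longest, with a Spearman correlation of -0.30 between fold change and coding length over the members. The genes share their libraries and are not independent. The part of coding length in the fold changes was not tested, and the fit with offsets used the length and GC content of the whole transcript.

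**Figure D3:**
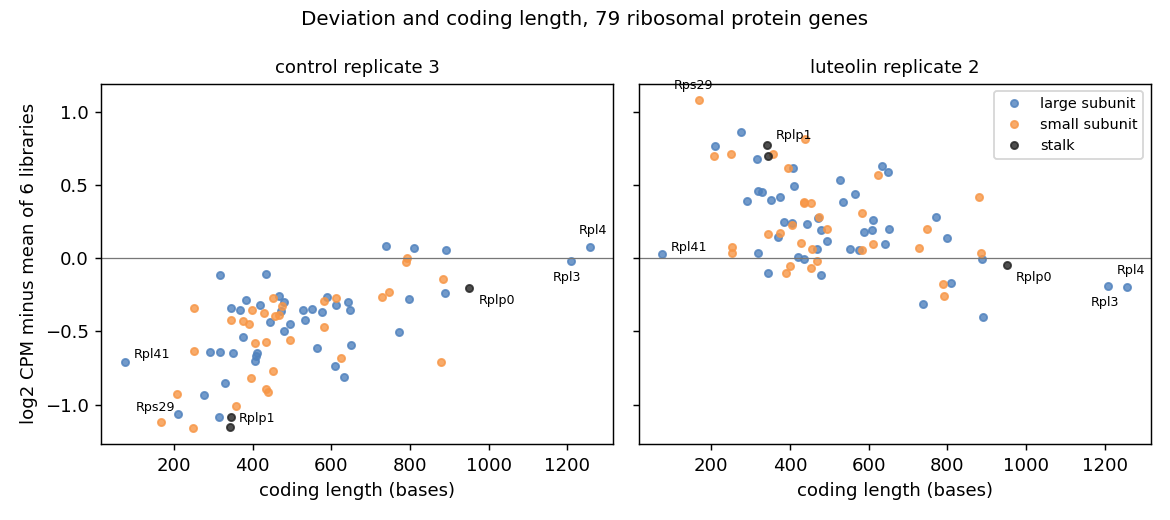
Deviation (y axis, log2 CPM minus the mean of the 6 libraries) against coding length (x axis, bases) in control replicate 3 and in luteolin replicate 2, for the 79 members other than Rpl39, Rpl22l1, Rpl39l and Rpl3l, coloured by subunit. Short genes such as Rps29 and Rplp1 lie among the lowest in control replicate 3 and among the highest in luteolin replicate 2. The long genes Rpl3 and Rpl4 lie near 0 in control replicate 3 and at -0.19 and -0.20 in luteolin replicate 2.

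Base composition also moved with the libraries, in the members as in all genes. Coding GC content ranged from 39.9% in Rpl22l1 to 61.6% in Rpl36 with a median of 52.6%. Spearman's correlation between deviation and coding GC over the members was 0.52 in control replicate 1 and 0.50 in luteolin replicate 2, and it was -0.39 in control replicate 3, -0.39 in luteolin replicate 1, -0.39 in luteolin replicate 3 and -0.28 in control replicate 2. Over 14612 coding genes it was 0.38, 0.45, -0.52, -0.14, -0.34 and -0.19 in the same libraries. Fold changes of the members had a Spearman correlation of 0.08 with coding GC.

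Among large subunit proteins, Rpl4 and Rpl3 reach deep into the core of the ribosome, and Rpl4 has the longest coding sequence of all tested members. Rpl4 was 2382, 2588 and 2288 CPM in control and 1986, 1893 and 1964 CPM in luteolin. All 3 luteolin libraries were below all controls. The log2 fold change was -0.31 (SE 0.12, adjusted p = 0.198 by edgeR), with the smallest spread of any member. Rpl3 was 1685, 1698 and 1461 CPM in control and 1355, 1301 and 1439 CPM in luteolin, again without overlap, and its log2 fold change of -0.24 (SE 0.13) had an adjusted p of 0.341 by edgeR.

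Rpl5 and Rpl11 form the 5S ribonucleoprotein particle. Rpl5 was 1133, 1600 and 1299 CPM in control and 1269, 945 and 1348 CPM in luteolin. Rpl11 was 423, 464 and 307 CPM in control and 407, 539 and 369 CPM in luteolin. Both overlapped between the groups, with log2 fold changes of -0.18 (SE 0.20) and 0.14 (SE 0.22). Rpl13a, which also serves outside the ribosome in an interferon-induced translational silencing complex, was 1303, 1459 and 689 CPM in control and 1112, 1316 and 1200 CPM in luteolin. Control replicate 3 was lowest and control replicate 2 highest, and the log2 fold change was 0.07 (SE 0.27).

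Besides Rpl39l, the large subunit genes with every luteolin library above every control were Rpl10a and Rpl29. Rpl10a was 421, 390 and 359 CPM in control and 485, 691 and 470 CPM in luteolin, with a log2 fold change of 0.49 (SE 0.19, adjusted p = 0.205 by edgeR). Luteolin replicate 2 was the highest library. Rpl29 was 60.7, 62.1 and 47.0 CPM in control and 77.4, 75.8 and 82.2 CPM in luteolin, with a log2 fold change of 0.47 (SE 0.16, adjusted p = 0.176 by edgeR).

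Rpl37a was 369, 387 and 189 CPM in control and 398, 655 and 313 CPM in luteolin, with a log2 fold change of 0.53 (SE 0.36). Rpl41, the shortest member with 75 coding bases, was 870, 1029 and 414 CPM in control and 488, 690 and 773 CPM in luteolin. Both overlapped between the groups. Rpl41 had the highest level per coding kilobase, with a mean of 9476 CPM per kilobase over the 6 libraries, followed by the small subunit genes Rps23 (3400) and Rps14 (3175). The log2 fold change of Rpl41 was -0.24 (SE 0.35).

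Among small subunit proteins, Rps6 is the substrate of the S6 kinases and Rps3 lines the entry of the mRNA channel. Rps6 was 791, 935 and 716 CPM in control and 837, 964 and 817 CPM in luteolin. Rps3 was 1580, 1831 and 1375 CPM in control and 1737, 1735 and 1715 CPM in luteolin. Control replicate 3 was the lowest library for both genes and the groups overlapped, with log2 fold changes of 0.10 (SE 0.15) for Rps6 and 0.12 (SE 0.14) for Rps3.

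Rps19, mutated in Diamond-Blackfan anaemia, was 519, 573 and 278 CPM in control and 603, 672 and 577 CPM in luteolin. The groups did not overlap, though luteolin replicate 3 stood only just above control replicate 2. The log2 fold change of 0.43 (SE 0.27) had an adjusted p of 0.422 by edgeR. Rps29, a zinc-binding protein of the small subunit, was 224, 241 and 99.7 CPM in control and 209, 460 and 201 CPM in luteolin. Luteolin replicate 2 was the one high library and control replicate 3 the one low library of Rps29, and its log2 fold change was 0.62 (SE 0.44).

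Rpsa, which is also known as the laminin receptor precursor, was 2299, 2345 and 1895 CPM in control and 1934, 2140 and 1971 CPM in luteolin, with a log2 fold change of -0.11 (SE 0.14). Rps23, at the decoding centre, was 1331, 1609 and 1118 CPM in control and 1585, 1554 and 1553 CPM in luteolin (log2 fold change 0.21, SE 0.16). Rps14 was 1315, 1632 and 1181 CPM in control and 1610, 1362 and 1531 CPM in luteolin (log2 fold change 0.13, SE 0.16). All 3 genes overlapped between the groups.

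The stalk proteins Rplp0, Rplp1 and Rplp2 recruit the translation factors with GTPase activity. Rplp0 was 2682, 2551 and 1931 CPM in control and 1963, 2155 and 2164 CPM in luteolin, with a log2 fold change of -0.19 (SE 0.16). Rplp1 was 827, 810 and 268 CPM in control and 519, 1022 and 472 CPM in luteolin. Rplp2 was 420, 379 and 141 CPM in control and 284, 486 and 233 CPM in luteolin. Rplp1 and Rplp2 shared 1 order of libraries, with luteolin replicate 2 highest, then control replicates 1 and 2, then luteolin replicates 1 and 3, and control replicate 3 lowest. Their log2 fold changes were 0.08 (SE 0.48) and 0.10 (SE 0.45), and -0.71 and -0.61 when control replicate 3 and luteolin replicate 2 were both left out. Rplp1 was then the 1 member called, lower in luteolin (adjusted p = 0.0388 by edgeR, against 3.21% of all genes called), a choice of libraries made after seeing the data. The adjusted p of Rplp1 was 0.302 to 0.978 in every other fit.

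Among the paralogs Rpl39l, Rpl22l1 and Rpl3l had fold changes outside the range of most members, while Rpl7l1, Rpl36al and Rps27l were within 0.5 of 0 on the log2 scale. Rpl39l, known mainly from male germ cells, had 0, 5 and 0 estimated counts in control and 133, 220 and 33 in luteolin. Every luteolin library was above every control. The levels were 0.0257 ± 0.0446 CPM (SD, n = 3) in control and 1.77 ± 1.11 CPM in luteolin. The fitted log2 fold change of 6.03 (SE 1.41, adjusted p = 0.0878 by edgeR) depended on the few control counts and is no bound: it was 9.91 without control replicate 2, the library with the 5 counts, and 5.403 to 6.41 without any other library. Its adjusted p ranged from 0.000157 by DESeq2 to 0.254 over the alternative fits. Rpl39l passed the filter on low counts only through the luteolin libraries, where it is high. Its p-values and calls are therefore no independent support. With no filter on low counts its adjusted p was 0.113 by edgeR. Its partner Rpl39 had 84, 11816 and 10503 counts in control and 14397, 408 and 14768 in luteolin. Control replicate 1 and luteolin replicate 2 were the low libraries, at 1.20 and 4.88 CPM against 163 to 235 CPM in the other 4, so that the log2 fold change of 0.44 had a standard error of 1.60. Rpl39l did not share this pattern: it had its highest count in luteolin replicate 2, where it reached 53.9% of the Rpl39 count, against at most 0.924% in the other libraries.

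Rpl22l1, the paralog of Rpl22 and the member with the lowest coding GC content, had 198, 1387 and 2678 counts in control and 3676, 396 and 3895 in luteolin. Its low libraries were also control replicate 1 and luteolin replicate 2. It was 0.976%, 6.69% and 17.9% of Rpl22 in control and 21.3%, 1.41% and 23.9% in luteolin, so that both groups spanned nearly the whole range. Rpl22 itself was 232 to 337 CPM without such low libraries.

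Rpl7l1, a nucleolar relative of Rpl7, was 16.98%, 11.8% and 11.98% of Rpl7 in control and 9.74%, 10.7% and 11.2% in luteolin. All luteolin ratios were below all control ratios. The log2 ratio differed by -0.35 (two-sided exact permutation test over libraries, p = 0.1, the smallest p that 3 against 3 allows; 0.5 after Benjamini-Hochberg adjustment over 5 pairs). Control replicate 1 had the highest ratio, with Rpl7 at 790 CPM there against 1021 to 1349 CPM in the other libraries and Rpl7l1 at 134 CPM.

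Rpl36al, the close paralog of Rpl36a, was 34.4%, 29.8% and 22.8% of Rpl36a in control and 35.8%, 44.0% and 33.8% in luteolin. The ratios overlapped between control replicate 1 and luteolin replicate 3. The log2 ratio differed by 0.40 (exact permutation p = 0.2, adjusted 0.5). Rps27l, a p53 target, was 11.3%, 17.9% and 20.1% of Rps27 in control and 18.6%, 15.9% and 15.9% in luteolin, with a difference of 0.07 (exact permutation p = 0.9, adjusted 0.9).

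Rpl3l, which takes the place of Rpl3 in skeletal muscle and heart, had 21, 73 and 39 counts in control and 30, 179 and 30 in luteolin. Luteolin replicate 2 was the high library, and summed skeletal muscle markers were 794, 1113 and 1729 CPM in control and 661, 1640 and 419 CPM in luteolin. The part of muscle RNA in Rpl3l was not tested. Its log2 ratio to Rpl3 differed by 0.66 (exact permutation p = 0.7, adjusted 0.875), and that of Rpl22l1 to Rpl22 by 0.87 (exact permutation p = 0.5, adjusted 0.833). Rpl10 was 950 to 1253 CPM, with 0 counts of Rpl10l, which allows up to 3 counts in each library by counting error alone, or 12 if a read pair weighs 4 units. Rps4x, on the X chromosome, was 1334 to 1944 CPM with a log2 fold change of -0.02 (SE 0.18).

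**Figure D4:**
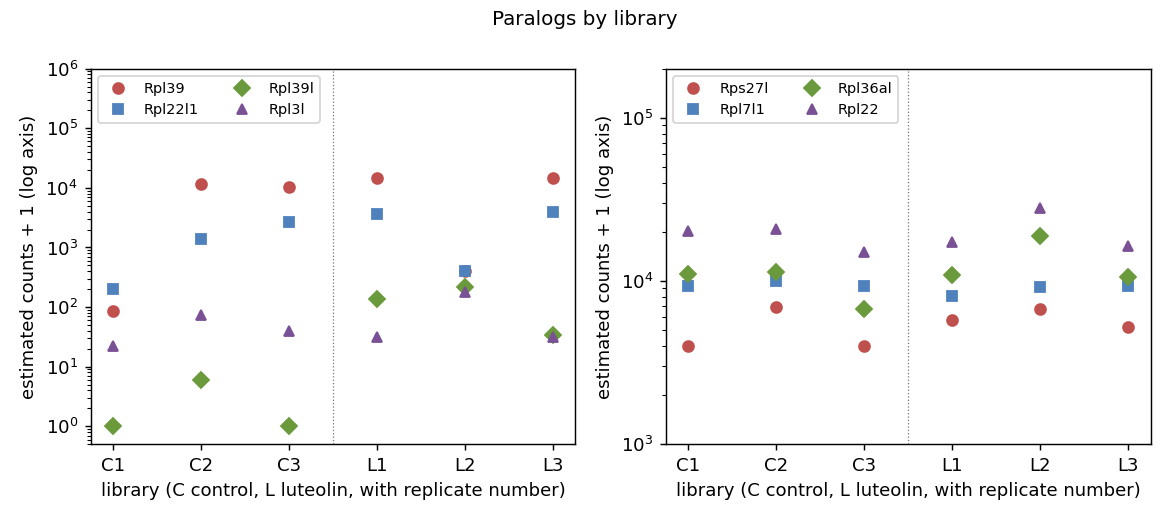
Estimated counts plus 1 (y axis, log scale) of paralogs and partners by library (x axis, C control and L luteolin with the replicate number). On the left Rpl39 and Rpl22l1 are low in control replicate 1 and luteolin replicate 2 and Rpl39l is at 0, 5 and 0 counts in control, and on the right Rps27l, Rpl7l1, Rpl36al and Rpl22 vary less between libraries.

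Fau and Rack1 work beside the members in the ribosome under other symbols. Fau encodes a small subunit protein fused to a ubiquitin-like protein, and Rack1 is a scaffold on the small subunit. Fau was 378, 381 and 165 CPM in control and 338, 529 and 279 CPM in luteolin. It was lowest in control replicate 3, like the short members. Rack1 was 1390, 1401 and 1052 CPM in control and 1244, 1457 and 1306 CPM in luteolin, and neither gene passed the test (log2 fold changes 0.31 and 0.06).

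Genes that make or control ribosomes showed no calls at an adjusted p under 0.05 in edgeR either, in any of 8 lists with the scaling reported here. DESeq2 called 1 gene, Mrpl49, where it called 12.2% of all genes. The edgeR fit with offsets called Mrpl49 and Deptor, against 6.53% of all genes. With limma voom, 1 to 6 genes were called in 5 of the lists, against 21.4% of all genes. Of 22 translation factors and other genes with a terminal oligopyrimidine tract, 3 were above 0 and 19 below, with a median log2 fold change of -0.11 against -0.01 over all genes, of which 49.3% were above 0. At an unadjusted p under 0.05, 2 of the 22 were lower, near the 6.44% of all genes. These were the eIF3 subunits Eif3h, at 387, 410 and 384 CPM in control and 342, 280 and 307 CPM in luteolin, and Eif3l. Their log2 fold changes were -0.35 (adjusted p = 0.216 by edgeR) and -0.33 (adjusted p = 0.238). Of 51 ribosome biogenesis genes, 16 were above 0 and 35 below, with a median of -0.10 and 0 at an unadjusted p under 0.05. Rrn3, an initiation factor of RNA polymerase I, was 106, 111 and 128 CPM in control and 92.4, 65.9 and 97.9 CPM in luteolin, and Polr1a, the largest subunit of that polymerase, had a log2 fold change of -0.38 (adjusted p = 0.276 by edgeR). The members' own median was 0.13 in the same fit of all 6 libraries. It was -0.03 without control replicate 3, where the median of all genes was 0.02. The medians of these lists in that fit are not given here.

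Of 22 genes of the mTORC1 pathway, 4 were lower at an unadjusted p under 0.05 and 0 higher, against 6.44% and 14% of all genes, and the median log2 fold change was 0.02. They were the mTOR inhibitor Deptor, the translational repressor Eif4ebp2, and Rptor and Tsc2, the last pair being named after their values were seen. Deptor was 36.0, 50.8 and 78.6 CPM in control and 32.8, 31.5 and 31.8 CPM in luteolin (log2 fold change -0.78, adjusted p = 0.19 by edgeR, 0.0322 by edgeR with the offsets and 0.0331 by limma voom, and up to 0.411 with 1 library left out). Eif4ebp2 was 437, 371 and 352 CPM in control and 254, 324 and 282 CPM in luteolin (log2 fold change -0.43). Its adjusted p was 0.195 by edgeR, 0.0106 by limma voom and up to 0.436 by edgeR with 1 library left out. Neither gene overlapped between the groups, where 12.8% of all genes had every luteolin library below every control. Of 9 tested S6 kinase genes, Rps6kc1 was lower at an unadjusted p under 0.05 (102, 86.7 and 85.1 CPM in control against 66.4, 54.3 and 74.4 CPM in luteolin). Its adjusted p was 0.183 by edgeR, 0.0347 by limma voom and up to 0.429 by edgeR with 1 library left out. The log2 fold change of Rps6ka1 was -0.39, and the median over the 9 genes was -0.25.

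Of 11 tested factors known to act on ribosomal protein promoters, 4 were above 0 and 7 below, with a median of -0.05. Max, the partner of Myc, had a log2 fold change of 0.47 (adjusted p = 0.253 by edgeR) and Sp1 of -0.35 (adjusted p = 0.461 by edgeR). Of 10 p53 pathway genes, 8 were above 0 (49.3% of all genes), with a median of 0.21 and 0 at an unadjusted p under 0.05. Cdkn1a was 69.4, 73.8 and 55.6 CPM in control and 76.2, 136 and 80.2 CPM in luteolin, without overlap (adjusted p = 0.288 by edgeR). Every luteolin library lay above every control for 15.9% of all genes. Phlda3 was 12.8 to 14.9 CPM in 5 libraries and 39.6 CPM in luteolin replicate 2. Of 78 genes of the mitochondrial ribosome, 32 were above 0 and 46 below, with a median of -0.05. Mrpl49, at 74.4, 70.6 and 61.02 CPM in control and 42.0, 47.6 and 44.3 CPM in luteolin (adjusted p = 0.0961 by edgeR), and Mrpl45 (adjusted p = 0.241) were lower at an unadjusted p under 0.05. These were 2 of the 78, where 6.44% of all genes were lower.

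Markers of other cells differed between the groups or between single libraries. Summed keratinocyte markers were 182 to 196 CPM in control and 651, 12454 and 166 CPM in luteolin, with luteolin replicate 2 far above the rest. By gene, all 12 tested keratinocyte markers had a log2 fold change above 0. Every luteolin library lay above every control for 9 of these markers, against 15.9% of all genes. Summed T and NK cell markers were 18.9 to 23.3 CPM in control and 80.2 to 143 CPM in luteolin, with 12 of 12 genes above all controls, and macrophage markers were 1986 to 2381 CPM against 2545 to 3830 CPM. Proliferation markers were 3397 to 4664 CPM against 2402 to 3679 CPM, with the highest sum in control replicate 3, where the ribosomal protein genes were lowest. The hepatocyte list summed to 763 to 837 CPM in control and 617 to 732 CPM in luteolin, mostly from Trf, Krt18 and Glul, while 9 of its 12 tested genes were above 0 (median log2 fold change 1.43). Alb was 3.06, 60.3 and 0.868 CPM in control and 133, 26.0 and 31.9 CPM in luteolin, Afp was 32.7 to 66.7 CPM, and Apoa1, Ttr and Hnf4a were at most 3.07 CPM in any library. The part of these cells in the values of the ribosomal protein genes was not tested.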

How the data were processed

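RNA-seq was analysed for 6 libraries of H22 tumours, 3 per group, from 1 table in which the authors deposited estimated counts per gene. The submitters' processing notes name bcl2fastq 2.0, HISAT2, StringTie and DESeq2 and the builds mm39 and rn6 without their roles. The deposited values are whole numbers, and 44.8% of those from 1 to 40 are multiples of 4, so a read pair may weigh more than 1 unit. All columns were used (0 belonged to other samples). The labels and the paper describe different RNA and library kits.

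Symbols were matched to members by pattern, and coding length, GC content and position were taken from GENCODE M21 (GRCm38) for all 84 members. Promoter starts came from RefSeq. The deposited table holds no coordinates, so those printed are of the annotation. 7 further genes of the table are named as pseudogenes of members, with 28162 to 52550 counts per library, and 300 such symbols are annotated, so reads shared between a member and its copies make the counts of single members uncertain.

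Counts were filtered with filterByExpr, scaled by TMM and tested on the whole table with edgeR 4.0.16 (glmQLFit and glmQLFTest, no covariate) in R 4.3.3. A prior count of 2 was used for log2 CPM only, and the fits kept edgeR's default. Standard errors of edgeR fits are the absolute log2 fold change divided by the square root of the F statistic. p-values were adjusted by Benjamini-Hochberg over all genes tested. Alternatives used DESeq2 1.42.0, limma 3.58.1 (voom with sample quality weights), other scalings and filters, and a division of the values by 4. They also used corrections for the GC content and length of the whole transcript (offsets), a block for the replicate number, and each library left out. 2 pairs of libraries were left out together, a choice made after seeing the data. Paralog ratios used exact permutation tests over libraries (scipy 1.17.1). The fits were tested on simulated data.

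The members and lists were chosen with earlier results of these data known. Named members were the paralog pairs, the stalk proteins, Rpsa, Rpl5, Rpl11, Rps6, Rps3, Rps19 and Rpl13a, the 5 highest and 5 lowest fold changes, the 3 largest and 3 smallest spreads within groups and the 3 highest levels per coding length. In the companion lists these were the 2 genes with the smallest p, and the fusion and scaffold genes (1 further gene of this kind is not reported here). Rps4l was not analysed here.

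The totals were 61081637 to 80442954 counts. Intervals and limits of 0 cover counting error only.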

Additional observations from a re-analysis of the deposited data

How the results depend on the processing

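No member passed an adjusted p under 0.05 in edgeR with RLE, upper-quartile or member-free TMM scaling, with either filter on low counts, with values divided by 4, with any single library left out or with a block for the replicate number. Without control replicate 1, 2 or 3 or luteolin replicate 1, 0 genes of the whole table passed, so those 4 fits say nothing about the members. Members called higher were 1 by DESeq2, 3 by limma voom and 1 with offsets for GC content and length, and members called lower were 2 by limma voom and 1 without control replicate 3 and luteolin replicate 2 together, a fit chosen after seeing the data. Over all genes these fits called 12.2% (DESeq2), 21.4% (limma voom), 6.53% (offsets) and 3.21% (the pair left out). By the threshold of the study, members called higher were 2 by limma voom, 2 without that pair of libraries, 0 with at least 10 counts in every library and 0 with values divided by 4, since Rpl39l is then filtered out. In the companion lists limma voom called 4 of the translation factors and other genes with a terminal oligopyrimidine tract. These were Eif3l, Eif3m and Tpt1, with log2 fold changes below 0 by edgeR, and Vim, at 0.26. Limma voom also called 2 biogenesis, 3 mTORC1, 1 S6 kinase and 6 mitochondrial ribosome genes. DESeq2 called 1 of the last, and the offsets, added for these lists after seeing the data, called 1 mTORC1 gene (Deptor) and 1 mitochondrial ribosome gene (Mrpl49). Libraries with the same replicate number had correlations of deviations of -0.196, -0.092 and 0.063, which cannot show whether the numbers pair the libraries. The block for the replicate number gave 0 called members, a median of 0.17 and 35 called genes against 228 in all. The median over members was 0.17 with upper-quartile scaling, 0.26 without control replicate 2, -0.03 without control replicate 3 and -0.10 without control replicate 3 and luteolin replicate 2 (26 genes above 0, 57 below). The share of the library differed by -0.15 to 0.875 points with 1 library left out. The cause of these changes was not tested.

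Many log2 fold changes changed sign, and of these only that of Rplp1 without control replicate 3 and luteolin replicate 2 was called. They included those of Rps29, Rpl3l and Rpl37a, which were among the 5 highest of the members. With limma voom they were Fau -0.063, Rack1 -0.10, Rpl11 -0.12, Rpl13a -0.22, Rpl22 -0.14, Rpl3l -0.78, Rplp1 -0.45, Rplp2 -0.29, Rps27 -0.088, Rps27l -0.041, Rps29 -0.013, Rps3 -0.0094 and Rps6 -0.089. With the offsets, which moved the median of all genes to -0.24, they were Fau -0.075, Rack1 -0.20, Rpl10 -0.15, Rpl11 -0.19, Rpl13a -0.21, Rpl22 -0.26, Rpl7 -0.047, Rplp1 -0.32, Rplp2 -0.27, Rps14 -0.19, Rps23 -0.047, Rps27 -0.18, Rps27l -0.053, Rps3 -0.12 and Rps6 -0.17. Without control replicate 3 and luteolin replicate 2 they were Fau -0.28, Phlda3 -0.080, Rack1 -0.12, Rpl11 -0.18, Rpl13a -0.24, Rpl22 -0.17, Rpl37a -0.074, Rpl3l -0.55, Rplp1 -0.71, Rplp2 -0.61, Rps27 -0.090, Rps29 -0.17, Rps4x 0.053, Rps6 -0.046 and Sp1 0.025. Without control replicate 1 and luteolin replicate 2 they were Rpl22 -0.018, Rpl3l -0.82 and Rplp1 -0.096. Rpl36a was 0.010 with at least 10 counts, 0.0051 with the replicate block, 0.040 with upper-quartile scaling and 0.0042 with values divided by 4, and Rps4x was 0.022 with upper-quartile scaling. With 1 library left out the ranges that crossed 0 were -0.016 to 0.94 for Phlda3, -0.066 to 0.11 for Rack1, -0.021 to 0.24 for Rpl11, -0.19 to 0.26 for Rpl13a, -0.072 to 0.13 for Rpl22, -0.095 to 0.11 for Rpl36a, -0.13 to 1.04 for Rpl39, -0.47 to 1.13 for Rpl3l, -0.55 to 0.0043 for Rpl41, -0.060 to 0.29 for Rpl7, -0.34 to 0.26 for Rplp1, -0.26 to 0.31 for Rplp2, -0.11 to 0.31 for Rps27, -0.0057 to 0.51 for Rps27l and -0.16 to 0.13 for Rps4x. The paralog log2 ratios that crossed 0 were Rpl3l to Rpl3 (-0.092 to 1.09), Rpl22l1 to Rpl22 (-0.29 to 2.21) and Rps27l to Rps27 (-0.18 to 0.23).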

Other observations

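The 2 libraries with almost no Rpl39 shared this with few other genes. Of 10133 genes above 5 CPM in each of the other 4 libraries, 5 were more than 5-fold lower in both control replicate 1 and luteolin replicate 2, a search made after the values of Rpl39 were seen. They were Rpl39, Med21, a subunit of the Mediator complex, Kpna4, a nuclear import receptor, and the prolactin family genes Prl2c2 and Prl2c3. For any other of the 15 pairs of libraries at most 1 gene met the same limits. Kpna4 was 30.6 and 25.7 CPM in control replicate 1 and luteolin replicate 2 and 157 to 236 CPM in the other 4. Med21 was 2.65 and 3.23 CPM there against 16.4 to 59.3 CPM. Prl2c2 was 0.415 and 3.004 CPM against 24.4 to 79.9 CPM, and Prl2c3 was 0.501 and 3.45 CPM against 21.5 to 58.4 CPM. The near-identical sequences of Prl2c2 and Prl2c3 can split reads between them. The coding GC content of the 5 genes was 40.7% to 45.1%, and the part of base composition was not tested. Their low levels in these 2 libraries, which belong to different groups, follow from the limits of the search.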
